A study of Mus musculus with 108 samples.

Results

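The libraries described here are RiboMinus RNA-seq libraries of single mouse MII eggs, made without selection for a poly(A) tail and after removal of ribosomal RNA. They were chosen by the stage, genotype and library type in their titles and number 7 of the 108 samples of the series. The knockout group (cKO) has 4 eggs with the genotype Exosc10 oocyte-specific knockout, 2 of female V1166 and 2 of female V1167, and the control group has 3 eggs, all of female V1145. MII (metaphase II) eggs are the ovulated stage arrested before fertilisation, and they were dissected from oviducts with no treatment named. The labels name neither the Cre driver nor the genotype of the controls, strain or age. The rest of the series holds polyA libraries, RiboMinus libraries of the earlier germinal vesicle (GV) stage and ribosomal RNA files with the same egg numbers. Of these, 23 polyA MII eggs (15 cKO and 8 control, 3 females each) and 15 RiboMinus GV oocytes (7 cKO and 8 control, 2 females each) are set beside the MII eggs.

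Exosc10 encodes a 3′ to 5′ ribonuclease of the nuclear RNA exosome, the complex that trims ribosomal and small nucleolar RNA precursors and degrades short-lived nuclear transcripts. Co-factors such as the helicase encoded by Mtrex bring RNA to it. A fully grown oocyte stops transcribing and matures on stored RNA, part of which is deadenylated and cleared before the MII arrest. Libraries that do not depend on a poly(A) tail also hold RNAs that never carry one, such as structured RNAs of RNA polymerase III, small nucleolar RNAs, and replication-dependent histone mRNAs, and mRNAs whose tail was shortened.

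The files gave 16220993 to 20447150 counts on genes in the control eggs and 20678209 to 62675760 in the cKO eggs. The cKO egg with 62675760 counts (V1166, egg 1) stood apart in depth. All 3 controls shared a female and no female gave both genotypes, so the genotype and the female cannot be told apart, and p-values measure the spread between these eggs only. The gene files held 0 lines for the spike-in RNA that the labels mention, so each value is relative to the other RNA of the same egg. Counts outside genes were 8.43 to 9.56% of all counts in cKO eggs and 11.2 to 12.0% in controls. The mean GC content of the counts on coding genes was 48.5 to 49.1% in cKO eggs and 47.8 to 47.9% in controls. Neither range overlapped, and the exact permutation test (two-sided) gave p = 0.0571 for each, which is the smallest that 4 against 3 eggs can give.

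Egg genes were present in all 7 libraries: the 10 egg markers, among them Zp1, Zp2 and Zp3 of the egg coat, summed to 8270 to 11100 CPM (counts scaled to library size with TMM factors) in cKO eggs and 11700 to 12700 in controls. Markers of the oviduct, from which the eggs were taken, differed. The 5 oviduct markers summed to 7.53 to 86.7 CPM in cKO eggs and 0 to 1.12 CPM in controls, where Krt7 and Pax8 were at 0. The largest part of the sum in each cKO egg was Ovgp1, the oviduct-secreted glycoprotein, with 82.6, 76.0, 8.82 and 6.70 CPM in the cKO eggs against 0.875, 0 and 0.399 in the controls (log2 fold change 6.66 ± 1.15, SE, adjusted p = 0.00183). Krt7 had 0.436, 2.58, 4.38 and 0.0379 CPM and Pax8 0.603, 3.08, 0.0711 and 0.379 CPM in the same cKO eggs. Ovgp1 was not called by limma voom with the female as a random effect, as given below. In the other comparisons it reached at most 11.1 CPM in polyA MII eggs and 5.97 CPM in RiboMinus GV oocytes, both in cKO samples. The 5 markers summed to 0.134 to 12.4 CPM in polyA MII cKO eggs and 0 to 2.47 in their controls. At GV the sums were 0.645 to 7.97 CPM in cKO and 0.436 to 2.53 in control oocytes. The 6 blood and immune markers summed to 5.72 to 92.9 CPM in cKO eggs and 6.92 to 11.1 CPM in controls, with Hba-a1 at 0 in all 7. The value of 92.9 belonged to egg 1 of V1166, which had Lyz2 at 36.7 CPM and Ptprc at 14.0 CPM. The 12 cumulus cell markers summed to 15.4 to 44.9 CPM in cKO eggs and 20.4 to 31.4 CPM in controls, and Amhr2, Fst, Ptx3 and Tnfaip6 were at 0 in all 7. Of the 12 cumulus markers 5 were tested and 1, Star, was called. Star, which delivers cholesterol for steroid synthesis, had 3.82, 1.31, 7.01 and 4.09 CPM in cKO eggs and 3 counts over the controls (ratio 71.8, 95% counting interval 24.4 to 349, not called without V1167, adjusted p = 0.106). Cyp19a1 had 6.45, 13.8, 13.1 and 15.9 CPM in cKO eggs and 27.9, 13.1 and 14.4 in controls. For Has2 the values were 0.687, 0, 0.996 and 0 against 0.437, 4.76 and 5.58. Ptgs2 and Fshr had their highest values in cKO eggs (22.0 and 13.8 CPM). Whether the RNA of these markers came from more cells or from more RNA per cell cannot be told apart, and its part in the results below was not tested.

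**Figure D1:**
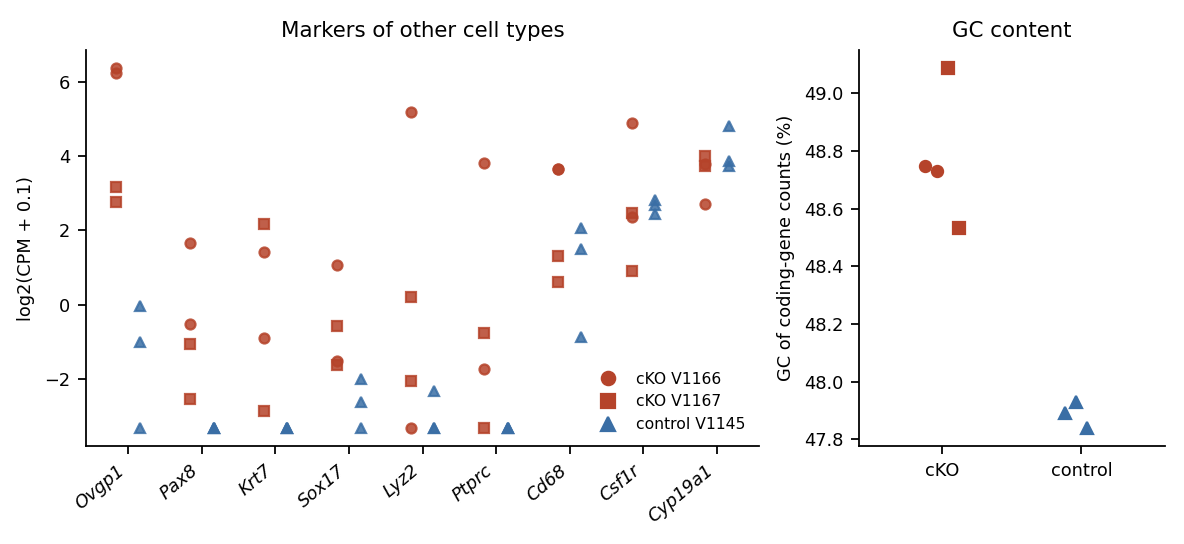
Left, level of 9 markers of other cell types as log2(CPM + 0.1), 1 point per egg, for the cKO females V1166 and V1167 and the control female V1145. Right, GC content (percent) of the counts on coding genes per egg. Ovgp1 lies above the controls in all 4 cKO eggs and is highest in the V1166 eggs, and the cKO eggs lie at 48.5 to 49.1% GC against 47.8 to 47.9% in the controls.

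Exosc10 itself (chromosome 4, 148558429 to 148582401, plus strand, mm10) was strongly reduced. It had 0.452, 3.64, 2.13 and 1.44 CPM in the cKO eggs, given here and below with V1166 before V1167, and 81.6, 103 and 98.8 CPM in the control eggs. Every cKO egg lay far below every control (log2 fold change -5.66 ± 0.54, SE, adjusted p = 9.93e-05). In polyA MII eggs the log2 fold change was -7.44 and in RiboMinus GV oocytes -5.25.

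Across the transcriptome 16675 genes had enough counts to be tested, and 3949 of them, 23.7%, differed between cKO and control eggs at a Benjamini-Hochberg adjusted p under 0.05 (edgeR), which is what a call means below. Of these, 2319 genes (13.9%) were higher in cKO eggs and 1630 (9.78%) were lower. This split turned round when limma voom was fitted with each female as a random effect, to 1287 higher and 1560 lower. The fitted correlation between eggs of the same female was 0.0627. Since limma voom was not run without the female term, the change of method and the female term cannot be told apart. The median log2 fold change was 1.9 among called rises and -1.40 among called falls, and of the 1499 called genes that moved over 4-fold, 1110 were higher. Over all tested genes the median log2 fold change was 0.13. All 4 cKO eggs lay above all 3 controls for 3368 genes (20.2%) and below them for 2696 (16.2%). Without any 1 of the controls the count of calls fell to 2328, 2439 or 2487. Of the 3949 genes, 2967 were also called without female V1166 and 2492 without female V1167, with 0 changes of sign. Without V1166 the calls were 2060 higher and 1775 lower, and without V1167 they were 1644 higher and 1387 lower. Counts of called genes in the lists below are set beside 13.9% higher and 9.78% lower, the shares over all tested genes, and counts of list members without a female cover the members that were also tested with all 7 eggs.

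**Figure D2:**
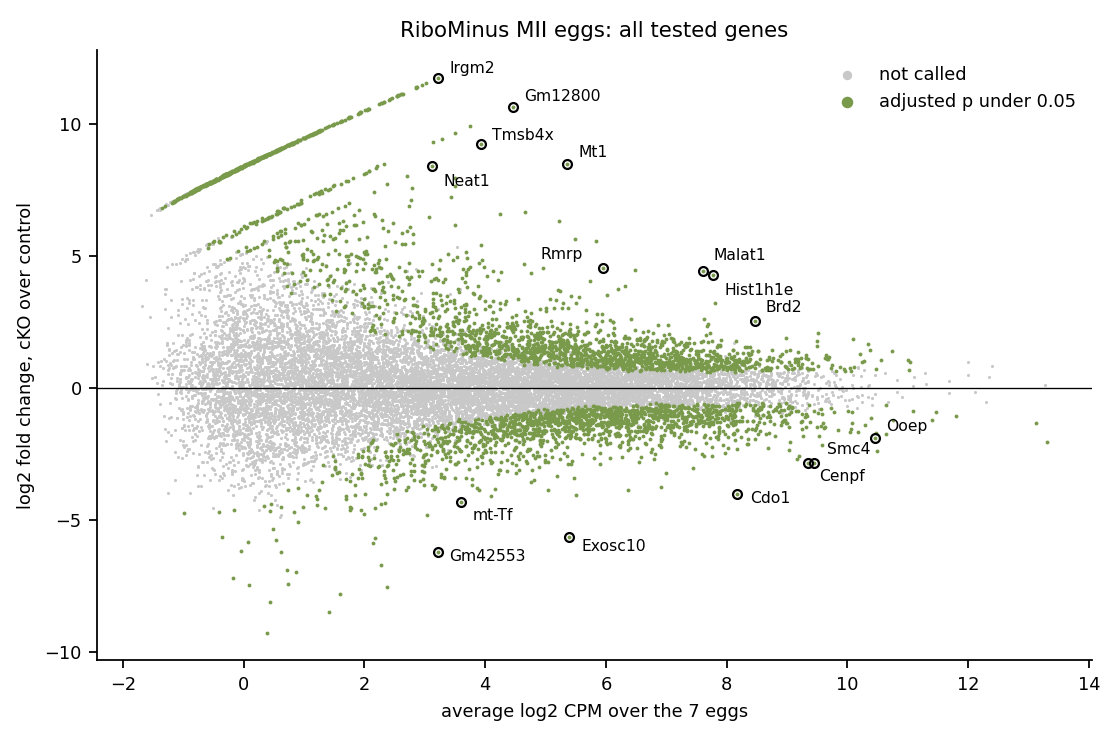
Each point is 1 of the 16675 tested genes, with average log2 CPM over the 7 eggs on the horizontal axis and log2 fold change of cKO over control on the vertical axis; green points have an adjusted p under 0.05. The straight upper bands are genes with 0 or few counts in the controls, whose fitted fold change depends on the added prior count, and named genes of the text are circled.

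The breadth of the RNA population was larger in cKO eggs. When each library was thinned to 12319658 counts, 20606, 19285, 21148 and 22244 genes had at least 1 count in the cKO eggs and 17612, 17339 and 17261 in the controls. The means were 20821 ± 1230 (SD, n = 4) and 17404 ± 184 (SD, n = 3), and the groups did not overlap (exact permutation test, two-sided, p = 0.0571). With at least 10 counts the means were 15534 ± 371 and 13923 ± 90.7 (SD, n = 4 and 3). In RiboMinus GV oocytes at the same depth, 22347 ± 913 genes (SD, n = 7) had a count in cKO and 20460 ± 354 (SD, n = 8) in control oocytes (exact permutation test, two-sided, p = 0.00155), with 20373 to 22891 and 19933 to 21171 as ranges.

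**Figure D3:**
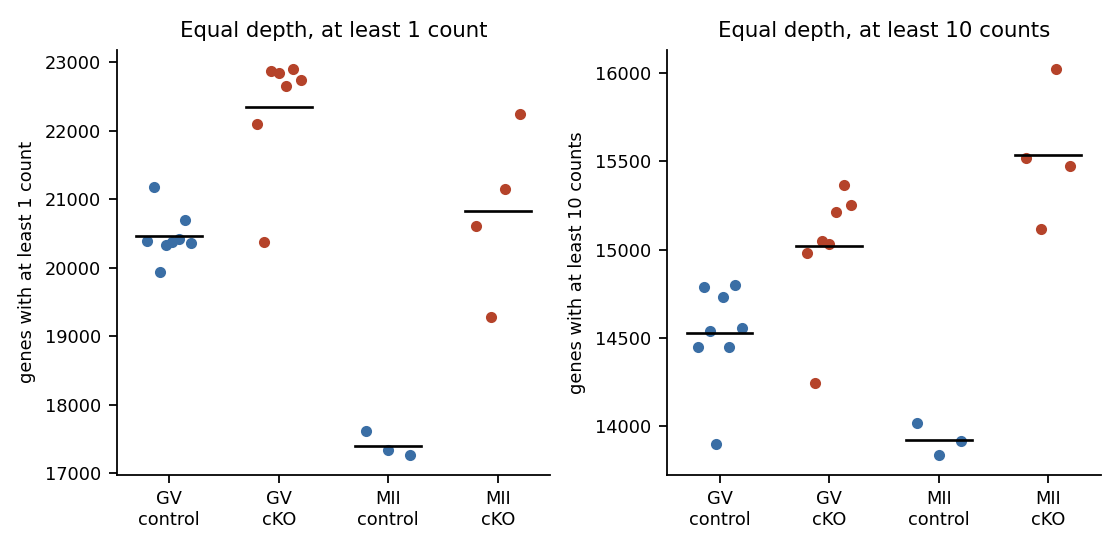
Genes with at least 1 count (left) and at least 10 counts (right) after thinning every RiboMinus library to 12319658 counts, 1 point per oocyte or egg, with a line at the group mean. The MII controls have the lowest group mean in both panels, with eggs at 17261 to 17612 genes on the left, and the 4 MII cKO eggs lie above them at 19285 to 22244.

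A set of 130 genes had 0 counts in all 3 control eggs and at least 10 counts in each of the 4 cKO eggs, at unthinned depth, and 112 of them were coding. The reverse pattern was met by 6 genes, which were Gm32772, Olfr1043, Olfr472, Qpct, Ttll7 and Zg16. Some of the 130 were present elsewhere in the series: the mean reached at least 1 CPM for 65 in RiboMinus GV cKO and 19 in GV control oocytes, and for 41 in polyA MII cKO and 12 in polyA MII control eggs. Of the 52 that were tested at GV, 32 were higher in cKO oocytes and 1 was lower, where 21.2% of all 15347 genes were higher and 16.5% lower. Of the 21 tested in polyA MII eggs, 8 were higher and 0 lower, where 19.0% of all 12564 genes were higher and 18.6% lower. A gene near 0 in controls can pass the count filter through the cKO samples alone. These counts can therefore lean towards rises and cannot be read as support.

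The largest rises among genes whose average log2 CPM was 3 or more, with no overlap between groups, started from under 1 CPM in each control egg, and 2 of the 10 named here were at 0 in all 3 controls. Irgm2, an interferon-inducible GTPase, had 8.01, 9.39, 19.6 and 27.5 CPM in cKO eggs and 0 in the controls, at least 83.7-fold higher when the controls are set at a limit of 3 counts per library (0.193 CPM). Its annotated span overlaps Igtp on the same strand. Gm29125, a lincRNA whose locus overlaps the pseudogene Gm6189 on the other strand, had 10.4, 3.94, 23.8 and 17.9 CPM and was at 0 in controls (at least 72.7-fold higher). Gm12800, a member of a repeated family of coding genes, had 40.6, 12.5, 54.3 and 45.7 CPM in cKO eggs and 1 count in 1 control egg. Its ratio was 2081, with a 95% counting interval of 373 to 82210 that covers counting error only. Members of such families share sequence, so their counts are uncertain.

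The other large rises had no function in common that the lists name. Slc7a14, of the cationic amino acid transporter family, had 7.66, 21.8, 41.7 and 21.9 CPM in cKO eggs and 1 count in all controls together. Sp4, a zinc finger transcription factor, had 6.57, 19.2, 27.9 and 13.8 CPM, and Mamld1, a transcriptional co-activator, 14.9, 11.5, 14.3 and 20.3 CPM, each with 1 count over the controls. The ratios were 1017 (95% counting interval 182 to 40170) for Slc7a14, 740 (133 to 29260) for Sp4 and 792 (142 to 31280) for Mamld1. Usp17lb, of a multigene family of deubiquitinases, had 23.9, 10.2, 21.3 and 22.9 CPM and a ratio of 1092 (196 to 43140). Mt1, a metallothionein that binds zinc, had 46.7, 35.7, 119 and 84.8 CPM against 0.437, 0 and 0.149 (log2 fold change 8.49 ± 0.75, SE, adjusted p = 7.36e-05). The rise of Mt1 was close in size at GV (8.51), with 75.3 to 169 CPM in GV cKO oocytes, and smaller in polyA MII eggs (1.95). In Tmsb4x the eggs of 1 female lay above those of the other. This gene, which encodes the actin-binding thymosin beta 4, had 70.5 and 25.8 CPM in the V1166 eggs and 3.81 and 5.94 in the V1167 eggs, with 2 counts over the controls (ratio 959, 265 to 7924). Tmsb4x was not called by limma voom with the female as a random effect (adjusted p = 0.128). Neat1 is described with the long non-coding RNAs.

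Beside Exosc10, the largest falls under the same rule were those of Gm42553 and of Me3, a metabolic enzyme gene. Gm42553, a predicted gene, had 0, 0.858, 0 and 0.379 CPM in cKO eggs and 21.9, 9.83 and 31.9 in controls (log2 fold change -6.22 ± 1.18, SE, adjusted p = 0.00306). Cdo1, the cysteine dioxygenase that starts taurine synthesis, had 26.0, 31.7, 13.1 and 81.8 CPM against 616, 712 and 530 (-4.02 ± 0.48, adjusted p = 0.000226). Me3, a mitochondrial malic enzyme, had 0.252 to 1.09 CPM against 12.2 to 26.7 (log2 fold change -4.83). The other genes named by the rule were C87198 (-4.09), the olfactory receptor gene Olfr624 (-4.05), Gm19757 (-3.88), the ribosomal protein retrogene Rpl37rt (-3.87), the serpin Serpinb12 (-3.86) and the mitochondrial tRNA mt-Tf, described below. The cKO eggs lay below the controls in all of these.

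Among abundant genes, those whose average log2 CPM was 7 or more, the 2 largest rises were an RNA and a histone, Malat1 and Hist1h1e, taken up below. Gm26917, a predicted gene classed as rRNA-like, had 465, 621, 194 and 170 CPM against 53, 19.2 and 43.8 (log2 fold change 3.23 ± 0.50, SE, adjusted p = 0.000953). The part of remaining ribosomal RNA in its counts was not tested. Icmt, which methylates prenylated proteins, had 375, 355, 231 and 271 CPM against 52.2, 38.4 and 61.6 (2.60 ± 0.27). Brd2, a reader of acetylated histones, had 612, 497, 621 and 456 CPM against 98.5, 92.7 and 91.1 (2.54 ± 0.22). Tollip, an adaptor of Toll-like receptor signalling and endosomal sorting, had a log2 fold change of 2.41, Sc5d, an enzyme of cholesterol synthesis, 2.37, and P4hb, a protein disulfide isomerase, 2.32, with no overlap of eggs. The adjusted p was 7.36e-05 for Brd2 and 0.00029 or less for Icmt, Tollip, Sc5d and P4hb.

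Beside Cdo1 (log2 fold change -4.02), described above, the abundant genes that fell most were Rpl17, Cenpf and Smc4. Rpl17, a protein of the large ribosomal subunit, had 57.6, 55.1, 28.3 and 28.2 CPM in cKO eggs and 376, 365 and 305 in controls (log2 fold change -3.04 ± 0.29, SE, adjusted p = 9.93e-05). Cenpf, a protein of the outer kinetochore, had 118, 290, 151 and 154 CPM against 1360, 1200 and 1270 (-2.84 ± 0.29, adjusted p = 0.00012). Smc4, a core subunit of condensin, had 194, 253, 163 and 157 CPM against a control mean of 1370 ± 328 (SD, n = 3, log2 fold change -2.84 ± 0.25, adjusted p = 7.36e-05). Ktn1, a kinesin-binding protein of the endoplasmic reticulum, was split by female, with 266 and 269 CPM in V1166 eggs and 78.3 and 70.8 in V1167 eggs, all under the 989 to 1200 of the controls (log2 fold change -2.70). Clip1, which tracks microtubule plus ends, fell by 2.60 on the log2 scale, Terf1, a telomere repeat binding protein, by 2.59, and the predicted gene Gm813 by 2.59.

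Calls among genes of the exosome and its partners went in both directions. Of the 11 genes of the exosome core, all tested, 2 were lower and 1 higher (median log2 fold change -0.13). Beside Exosc10 the lower gene was Exosc1, a cap subunit, with 49.9, 60.8, 52.4 and 59.7 CPM against 118, 130 and 137 (-1.20 ± 0.21, SE, adjusted p = 0.00186). Exosc6, a ring subunit, was higher at a low level (4.62 to 5.83 CPM against 0.257 to 0.999, log2 fold change 3.09, adjusted p = 0.0254), and it was not called without V1166 (adjusted p = 0.0802), without V1167 (0.129) or with the female as a random effect (0.0663). Of the 20 cofactor genes, all tested, 3 were higher and 1 lower (median 0.31). Ncbp1, the large subunit of the nuclear cap-binding complex, had 8.38, 15.3, 22.9 and 20.2 CPM against 0.187, 2.57 and 0.149 (log2 fold change 4.12, adjusted p = 0.00755; 0.069 without V1167). Tent4a, a poly(A) polymerase that tags nuclear RNA, had a log2 fold change of 0.97 and Zfc3h1, a scaffold of the poly(A) tail exosome targeting connection, 0.93. Zfc3h1 was not called without either female (adjusted p = 0.107 and 0.053). Mtrex, the exosome helicase, fell by 1.21 (29.4, 24.8, 62.1 and 58.0 CPM against 90.4, 89.3 and 122, adjusted p = 0.0187). With the GC trend removed Mtrex was not called (adjusted p = 0.107).

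Some genes of other RNA decay routes were called. Of the 16 other exonuclease genes, all tested, 3 were higher and 0 lower (median 0.20), where 13.9% of all tested genes were higher. These were Dis3l2, which degrades uridylated RNA (log2 fold change 1.77), Rexo1 (1.33) and the decapping exonuclease Dxo (1.00). Dis3l2 was not called without V1167 (adjusted p = 0.105), and Dxo without either female (0.135 and 0.098). Of the 25 genes of deadenylation and mRNA clearance, all tested, 8 were higher and 1 lower, where 13.9% of all tested genes were higher and 9.78% lower (median 0.12, against 0.13 over all genes). Without V1166 the count was 8 higher and 4 lower. The terminal uridylyltransferase Tut4, which marks deadenylated mRNA, had 10.6, 19.3, 3.59 and 0.833 CPM in cKO eggs and 1 count over the controls (ratio 438, 95% counting interval 78.5 to 17320). Zfp36l2, an AU-rich element binding protein needed for oocyte maturation, had 27.5, 144, 108 and 72.2 CPM against 17.9, 16.3 and 14.9 (log2 fold change 2.43 ± 0.45, SE, adjusted p = 0.00272). Its paralogue Zfp36l1 rose by 6.28 from at most 0.187 CPM in the controls, and it was not called without V1166 (adjusted p = 0.144). The deadenylase genes Pan2 (1.61) and Cnot8 (1.58) were higher, while the decapping enzyme gene Dcp2 was lower (162, 156, 85.3 and 152 CPM against 445, 495 and 463, -1.75 ± 0.24).

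Among RNAs that carry no poly(A) tail, Rmrp, the RNA of the RNase MRP ribonuclease that cleaves the ribosomal RNA precursor, was higher in cKO eggs. Its sequence and that of Rny3, a Y RNA bound by the Ro protein, are shown because these were the structured RNAs that were called; capitals mark the run of T at the 3′ end of Rny3, where RNA polymerase III stops, and the Rmrp record ends without such a run and has no capitals. The sequences and positions are those of GENCODE release M21 (mm10).
Rmrp (chr4:43492788-43493058, minus strand): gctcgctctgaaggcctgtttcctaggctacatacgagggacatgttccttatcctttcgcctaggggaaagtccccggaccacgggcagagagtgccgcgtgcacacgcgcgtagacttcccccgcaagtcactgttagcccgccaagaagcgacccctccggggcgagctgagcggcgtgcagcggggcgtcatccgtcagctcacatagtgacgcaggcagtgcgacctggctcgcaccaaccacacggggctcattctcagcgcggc
Rny3 (chr6:47781624-47781725, plus strand): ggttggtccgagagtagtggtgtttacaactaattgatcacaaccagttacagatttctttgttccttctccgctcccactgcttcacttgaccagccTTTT

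Rmrp is 271 bases long in this record and has a second gene record of the same symbol that overlaps it, and both overlap Ccdc107 on the other strand. Since the sources used here do not say whether counting used strand, reads of the pair cannot be told apart. The record shown had 77.0, 236, 56.5 and 47.8 CPM in cKO eggs and 8.50, 2.31 and 2.59 in controls (log2 fold change 4.55 ± 0.67, SE, adjusted p = 0.000799). The other had 102, 319, 76.8 and 104 CPM against 10.9, 4.11 and 5.63 (4.45 ± 0.56, adjusted p = 0.000299). All 4 cKO eggs lay above all controls, with egg 2 of V1166 the highest, and at GV the 2 records had log2 fold changes of 2.79 and 2.68. Rny3 had 67.3 and 67.4 CPM in V1166 eggs, 23.1 and 17.0 in V1167 eggs and 4.93, 21.9 and 13.2 in controls (log2 fold change 1.72, adjusted p = 0.0443). The V1167 eggs overlapped the controls, and without V1166 Rny3 was not called (adjusted p = 0.518). The 3 called records were all higher among the 9 tested of 12 in the list of structured RNAs, whose median was 0.58, where 13.9% of all tested genes were higher. Without V1166 the list gave 2 higher and 2 lower with a median of 0.10, and with the GC trend removed the median was 0.04. Other members were not called: Rn7sk (-0.61, adjusted p = 0.191), Rpph1, the RNA of RNase P (0.58, 0.341), the telomerase RNA Terc (-0.22, 0.875) and Rny1 (1.14, 0.0989). Rn7sk was called as lower without V1166 (-1.02, adjusted p = 0.0424) and Rny1 as higher without V1167 (1.72, 0.0191).

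A list of long non-coding RNAs was chosen as nuclear, although not all of its members stay in the nucleus. Of 9 tested of its 11 gene records, 4 were called and all 4 were higher (median 1.00), where 13.9% of all tested genes were higher. Without V1167 the list gave 2 higher of 8 tested. Malat1, a speckle-associated RNA that ends in a triple helix in place of a poly(A) tail, had 659, 423, 115 and 116 CPM in cKO eggs and 13.9, 11.1 and 20.5 in controls (log2 fold change 4.43 ± 0.62, SE, adjusted p = 0.000597). Without V1166 its log2 fold change was 2.93 (adjusted p = 0.000183). Neat1, the scaffold of paraspeckles, had 46.8, 4.65, 5.27 and 3.18 CPM and 2 counts over the controls (ratio 601, 95% counting interval 166 to 4963). Egg 1 of V1166 stood far above the other cKO eggs, and all lay above the controls. Without V1166 Neat1 had a log2 fold change of 6.53, against 8.41 with all eggs, and it was not called by limma voom with the female as a random effect (adjusted p = 0.0953). The V1166 eggs, highest in Malat1, also had the most Ovgp1 (82.6 and 76.0 CPM against 8.82 and 6.70 in V1167), and egg 1 of V1166, highest in Neat1, had 36.7 CPM of Lyz2 and 14.0 CPM of Ptprc. The part of these in Malat1 and Neat1 was not tested. Rian, an RNA of the imprinted Dlk1 to Dio3 region, had 1.54, 0.353, 2.06 and 0.795 CPM and was at 0 in controls (at least 6.16-fold higher), and Tug1 rose by 0.84 (212, 134, 196 and 253 CPM against 138, 96.5 and 98.7; adjusted p = 0.119 without V1167). Kcnq1ot1, a nuclear antisense RNA of an imprinted region, was not called (-0.11, adjusted p = 0.938). The summed share of the RNAs of this list was 0.0583 ± 0.0244% of gene counts in cKO eggs and 0.0180 ± 0.0020% in controls (SD, n = 4 and 3, exact permutation test, two-sided, p = 0.0571, 0.152 adjusted over 8 RNA classes).

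**Figure D4:**
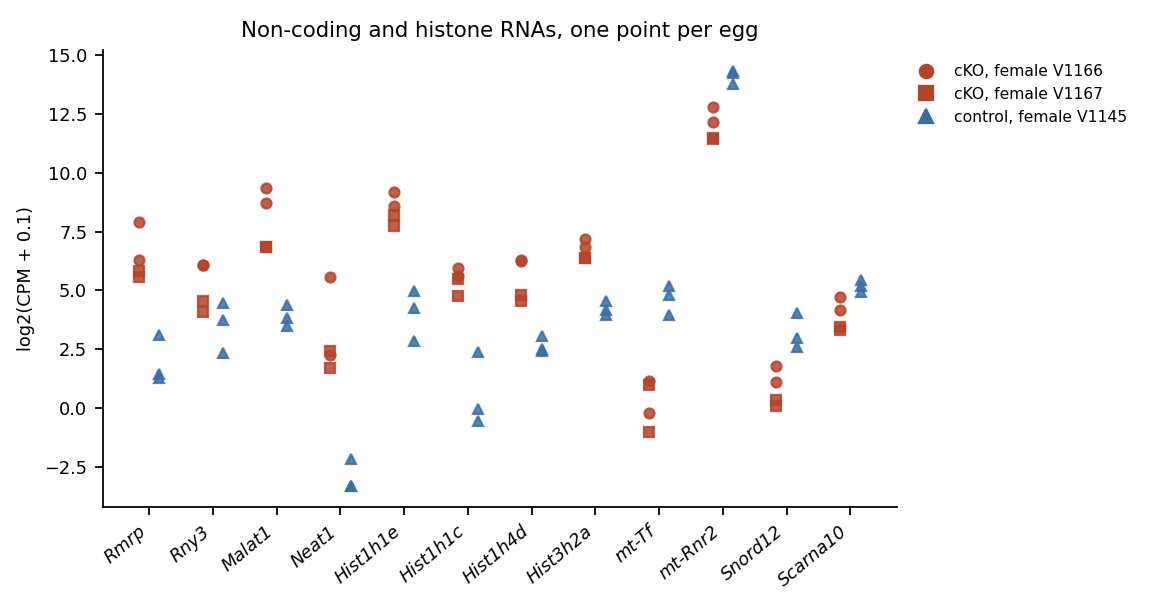
Level of 12 non-coding and histone RNAs as log2(CPM + 0.1), 1 point per egg, with circles and squares for the cKO females V1166 and V1167 and triangles for the control female V1145. Rmrp, Malat1, Neat1 and the 4 histone genes lie above the controls in every cKO egg, Rny3 overlaps, and mt-Tf, mt-Rnr2, Snord12 and Scarna10 lie below.

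Replication-dependent histone genes, whose mRNAs normally end after a stem-loop with no poly(A) tail, were mostly higher where they were called. Of the 70 genes of this class 45 were tested, 9 were higher and 1 lower (median log2 fold change 0.98). Without V1166 the count was 7 higher and 2 lower of 41, with a median of 0.50. These 10 calls of 45 lie near the 23.7% called over all tested genes, among which 13.9% of the tested genes were higher and 9.78% lower. The list below gives, for 5 of the genes, the stem-loop found by a motif search, since this element marks the class. It is in capitals within 30 bases of the transcript (GENCODE M21, mm10).
Hist1h1c (chromosome 13): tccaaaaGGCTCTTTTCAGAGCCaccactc
Hist1h1e (chromosome 13): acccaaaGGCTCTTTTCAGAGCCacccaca
Hist1h2bb (chromosome 13): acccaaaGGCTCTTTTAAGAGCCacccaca
Hist1h4d (chromosome 13): aaccaaaGGCCCTTTTCAGGGCCactacct
Hist3h2a (chromosome 11): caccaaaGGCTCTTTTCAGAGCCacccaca

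The motif searched was GGNNNTTNTNANNNCC on the transcript strand with a paired stem of 6 bases and a loop of 4, and 69 of 21901 coding genes (0.315%) hold it. It was found in all 9 histone genes that were higher, in 26 of the 33 coding histone genes that were tested and not called, and not in Hist1h2bc, the gene that was lower. Of the 9 higher genes 5 have over 100 annotated bases after the stem-loop and 4 do not, and of the 26 not called 15 do and 11 do not.

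Hist1h1e, a linker histone, had 389, 574, 296 and 214 CPM in cKO eggs and 7.18, 31.2 and 19.2 in controls (log2 fold change 4.26 ± 0.49, SE, adjusted p = 0.000211). Hist1h1c, another linker histone, had 49.4, 60.9, 44.3 and 27.2 CPM against 0.875, 0.578 and 5.18 (4.33 ± 0.68). Among the core histones, Hist1h3c had 15.5, 19.2, 19.4 and 4.24 CPM against 0, 0.193 and 1.44 (4.69), Hist1h4d rose by 3.01, Hist3h2a by 2.49 and Hist1h4h by 2.16. All of these kept the cKO eggs above the controls. Hist1h3b and Hist1h2bb were at 0 in the controls and at least 30.2-fold and 25.8-fold higher, although 1 of the V1167 eggs also had 0 CPM of Hist1h3b. Hist1h2be, whose annotated span overlaps Hist1h1e, rose by 5.99 and was not called without V1166 (adjusted p = 0.111). Hist1h2bc had 24.2, 17.3, 12.8 and 23.9 CPM against 80.1, 44.6 and 55.7 (-1.62 ± 0.32). The summed share of the class overlapped between the groups (0.329 ± 0.057% and 0.280 ± 0.027% of gene counts, SD, n = 4 and 3; exact permutation test, two-sided, p = 0.229). Among histone processing factors, Sympk (1.29) and Npat (1.31; adjusted p = 0.131 without V1167) were higher and 8 of the 10 tested were not called, the stem-loop binding protein gene Slbp among them (0.74, adjusted p = 0.132). Slbp was -0.022 without V1166, and it was called without V1167 (1.25, adjusted p = 0.00419) and with no filter on low counts (0.76, adjusted p = 0.0243). In RiboMinus GV oocytes 20 of the 39 tested histone genes were higher in cKO and 0 lower, where 21.2% of all genes tested at GV were higher and 16.5% lower. In polyA MII eggs 6 of 11 were higher and 0 lower, where 19.0% of all genes tested in those eggs were higher and 18.6% lower.

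Small nucleolar and Cajal body RNAs guide modification of other RNAs and are trimmed at their 3′ ends by the exosome. Of 150 genes of the class, 53 were tested, and 4 were lower and 0 higher (median log2 fold change -1.14), a share under the 9.78% of all tested genes that were lower. All cKO eggs lay below all controls for 21 of the 53 and above them for 0, where 16.2% and 20.2% of all tested genes did so. The share of gene counts on the class was 0.0182 ± 0.0084% in cKO eggs and 0.0342 ± 0.0088% in controls (SD, n = 4 and 3; exact permutation test, two-sided, p = 0.171). Snord12 had 2.04, 3.38, 0.961 and 1.17 CPM against 16.2, 5.98 and 7.82 (-2.41 ± 0.70, SE, adjusted p = 0.0254). Scarna3a (-2.48), Scarna3b (-2.60) and Scarna10 (-1.18) were the other called genes. Each of the 4 overlaps another annotated record on the same strand, Scarna3b and Scarna10 were not called with the GC trend removed (adjusted p = 0.0538 and 0.0579), and 0 of them were called when V1167 was left out, while 6 genes of the class were called lower without V1166. At GV 1 of the 49 tested was higher and 1 lower (median 0.04), where 37.6% of all genes were called. Among the 20 tested snoRNA host genes 1 was higher, Rcc1 (1.76), and 1 lower, Nop56 (-1.03).

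Of the 37 mitochondrially encoded genes 22 were tested, and 9 were lower and 0 higher (median log2 fold change -1.26), where 9.78% of all tested genes were lower. Without V1167 the count was 5 lower. The 9 were tRNAs, both ribosomal RNAs and mt-Nd6. The tRNA with the largest fall was mt-Tf, the phenylalanine tRNA at the start of the mitochondrial genome, whose sequence is given because it fell most of the mitochondrial RNAs that were called (GENCODE M21, mm10, with no base marked).
mt-Tf (chrM:1-68, plus strand): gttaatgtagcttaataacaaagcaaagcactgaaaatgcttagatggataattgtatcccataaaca

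The cKO eggs had 2.14, 0.757, 0.391 and 1.85 CPM of mt-Tf and the controls 28, 36.4 and 15.4 (log2 fold change -4.35 ± 0.62, SE, adjusted p = 0.000682). The tRNAs mt-Tc (-2.73), mt-Tl2 (-2.20) and mt-Tt (-2.04) were also lower, of which mt-Tc was not called without V1166 (adjusted p = 0.0504) and mt-Tl2 not without V1167 (0.124). The large ribosomal RNA mt-Rnr2 had 4590, 7080, 2860 and 2750 CPM against 19000, 20500 and 13800 (-2.04 ± 0.32, adjusted p = 0.00106), and the small one, mt-Rnr1, fell by 1.08, which was not called without V1167 (adjusted p = 0.13) or with the GC trend removed (0.397). Among the mRNAs of the respiratory chain, mt-Nd6 was lower (-0.89, adjusted p = 0.0146), but was not called without V1167 (0.068) or with the GC trend removed (0.944). The other 6 that were tested were not called, namely mt-Nd1 (0.82, adjusted p = 0.238), mt-Nd2 (0.42, 0.513), mt-Nd4 (0.15, 0.822), mt-Nd5 (-0.17, 0.736), mt-Co1 (0.99, 0.059) and mt-Cytb (-0.54, 0.243). Of these, mt-Co1 was called as higher by DESeq2 (adjusted p = 0.036), with library totals (0.0362), with the GC trend removed (0.0143) and without V1166 (0.0204), and mt-Cytb as lower without V1166 (-1.01, 0.0022). The summed mitochondrial share was 2.51, 6.69, 2.67 and 2.69% of gene counts in cKO eggs and 5.34, 4.85 and 3.89% in controls, with egg 2 of V1166 apart from the other cKO eggs (exact permutation test, two-sided, p = 0.514). When a GC trend was removed from each library, 4 mitochondrial genes were lower and 1 higher, and mt-Tl2 was not called (adjusted p = 0.187). At GV 18 of 21 tested mitochondrial genes were lower in cKO and 0 higher, where 16.5% of all genes tested at GV were lower.

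Of 86 ribosomal protein genes 78 were tested, and 16 were lower and 1 higher (median log2 fold change -0.80), where 9.78% of all tested genes were lower. The higher gene, Rps27l, was not called without V1166 (adjusted p = 0.188). The summed share of the class was 0.146, 0.118, 0.215 and 0.202% of gene counts in cKO eggs and 0.336, 0.268 and 0.305% in controls (exact permutation test, two-sided, p = 0.0571, 0.152 adjusted over the 8 classes). The shares of the groups did not overlap. Beside Rpl17, Rpl35 had 5.68, 5.55, 9.43 and 11.8 CPM against 40.3, 20.6 and 47.6 (-2.16 ± 0.41, SE, adjusted p = 0.0031). Rpl39l, a paralogue of Rpl39, fell by 1.78 and Rps20 by 1.71, the latter not called without V1166 (adjusted p = 0.0652). In polyA MII eggs 20 of 53 tested were higher and 5 lower (median 0.66), where 19.0% of all genes tested there were higher and 18.6% lower. At GV 9 of 80 were higher and 9 lower, where 21.2% and 16.5% of all genes were. The test of library type by genotype, in which 20.6% of 16440 genes were called, called 25 of 77 ribosomal protein genes. The difference of cKO from control was more negative in RiboMinus than in polyA libraries for 24 of them and more positive for 1. Among the 25 ribosome biogenesis genes 4 were higher, such as Bop1 (1.84), which was not called without V1167 (adjusted p = 0.46), and 5 were lower, such as Wdr12 (-1.83), against 13.9% and 9.78% of all tested genes.

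The ribosomal RNA files of the same eggs held 7 segments of the ribosomal precursor, which were assigned to spacers and mature RNAs by their order. In some spacers the cKO eggs lay above the controls and in another below. Counts on the 5′ external transcribed spacer were 819, 680, 491 and 515 CPM in cKO eggs and 79.4, 30.3 and 66.3 in controls, here scaled to all rRNA counts of the egg. For the first internal spacer they were 140, 158, 76.0 and 104 against 6.62, 6.73 and 6.22, which rest on 3 or 4 counts per control egg. For the second internal spacer the cKO eggs lay below the controls, at 346, 216, 235 and 206 CPM against 912, 769 and 746. None of these ranges overlapped (exact permutation tests, two-sided, p = 0.0571 each). The mature RNAs in the same total also separated the groups by this test (p = 0.0571 each). The cKO eggs lay above the controls in 5.8S and 28S (log2 ratio of means 0.37 and 0.16) and below them in 18S (-0.33). Summed over all spacers the log2 ratio to mature RNA was -9.99 ± 0.33 in cKO and -10.2 ± 0.17 in control eggs (SD, n = 4 and 3), a difference of 0.17 that was not larger than the spread (exact permutation test, two-sided, p = 0.4).

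Of 15 genes that control CDK1 in the meiotic divisions, all tested, 2 were higher and 2 lower (median 0.10), a share near the 23.7% of all tested genes that were called. Without V1166 the count was 2 higher and 4 lower. Cdk1, the kinase that drives entry into both divisions, had 38.2, 10.3, 72.8 and 75.1 CPM in cKO eggs and 156, 165 and 133 in controls (log2 fold change -1.62 ± 0.47, SE, adjusted p = 0.0253). Ccnb3, a cyclin that promotes anaphase onset in oocytes, had 1.66, 4.14, 0.569 and 1.25 CPM against 29.7, 14.7 and 15.2 (-3.39 ± 0.66, adjusted p = 0.00332). Ccna2, cyclin A2, was higher, with 786, 847, 698 and 622 CPM against 204, 217 and 172 (1.9 ± 0.21, adjusted p = 0.000186); it overlaps Exosc9 on the other strand, which was not called (-0.35, adjusted p = 0.405). Wee2, an oocyte kinase that inhibits CDK1, rose by 0.65 (1120 to 1540 CPM against 791 to 815).

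In the list of MII arrest, anaphase-promoting complex and checkpoint genes, 8 of 33 were higher and 4 lower, all 33 tested (median 0.38), where 13.9% and 9.78% of all tested genes were. Without V1167 the count was 6 in each direction. Cdc20, the activator of the anaphase-promoting complex, had 16.3, 49.5, 30.4 and 33.2 CPM against 8.25, 6.81 and 4.28 (2.33 ± 0.44, SE, adjusted p = 0.00306). The E2 enzyme gene Ube2c went the other way, with 29.2, 76.4, 40 and 43.3 CPM against 171, 143 and 185 (-1.82 ± 0.30), and Fbxo5, an inhibitor of the complex, fell by 1.36. Mos, the kinase that holds the MII arrest through the MAP kinase pathway, had 257, 256, 204 and 204 CPM against 115, 104 and 121 (1.02 ± 0.21, adjusted p = 0.00408), and Anapc10, a subunit of the complex, rose by 1.87.

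Genes of maternal egg proteins were called in both directions. In the subcortical maternal complex, which is needed for early cleavage, 2 of 8 genes were lower and 0 higher (median -0.68), where 9.78% of all tested genes were lower. Without V1166 the count was 3 lower and 1 higher, and without V1167 it was 5 lower. Ooep had 646, 444, 711 and 784 CPM against 2570, 2380 and 2280 (log2 fold change -1.9 ± 0.22, SE, adjusted p = 0.000221). Nlrp5 had 233, 368, 301 and 533 CPM against 918, 991 and 1100 (-1.48 ± 0.26, adjusted p = 0.00198). In polyA MII eggs both were higher in cKO (0.59 and 1.23), and the library type by genotype test called both (adjusted p = 6.47e-08 and 1.9e-11). Of 7 tested zona and fertilisation genes 2 were lower, the sperm fusion genes Cd9 (27.6, 7.73, 13.8 and 18.8 CPM against 52.4, 73.8 and 45.4, -1.75) and Izumo1r (-0.76), the latter not called without V1167 (adjusted p = 0.133). Among 14 tested oocyte factors 4 were higher and 5 lower, against 13.9% and 9.78% over all tested genes. Fgf8, a secreted signal to cumulus cells, had 11.3, 10.2, 22.7 and 23.4 CPM against 107 in each control (-2.66 ± 0.32), and Oosp2 (-1.51), Dppa3 (-1.43) and the receptor kinase Kit (-1.44) were also lower. H1foo, the oocyte linker histone, had 1730, 3090, 1320 and 1220 CPM against 580, 558 and 620 (1.65 ± 0.31, adjusted p = 0.00278), and Gdf9, an oocyte growth factor, rose by 0.99.

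Calls among membrane and envelope genes went in both directions. Of 13 nuclear lamina and envelope genes, all tested, 3 were higher and 2 lower (median 0.52), where 23.7% of all tested genes were called. Lbr, the lamin B receptor, had 328 to 437 CPM in cKO eggs and 192 to 247 in controls (0.88), and Syne1 (1.25) and Sun1 (1.08) were higher, while Banf1 (-0.88) and Lmna, which encodes lamins A and C (-0.87), were lower. Sun1 was not called without V1166 (adjusted p = 0.0998), and Syne1 and Banf1 were not without V1167 (0.0684 and 0.0603). Of 20 tested endosome and lysosome genes 7 were higher and 2 lower (median 0.32), where 13.9% and 9.78% of all tested genes were. Without V1167 the count was 4 higher and 2 lower. Rab5b, a small GTPase of early endosomes, rose by 1.85 and Ctsb, a lysosomal protease, by 1.40, while Eea1, the early endosome tether, had 120, 115, 69.5 and 67.3 CPM against 277, 230 and 249 (-1.44 ± 0.25, SE, adjusted p = 0.00186).

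The stress-response lists held calls in both directions. Of 7 tested metallothionein and zinc genes 4 were higher and 0 lower (median 1.44), where 13.9% of all tested genes were higher. These were Mt1, described above, Mt2 (3.50, 12.4, 16 and 5.03 CPM, 0 in controls, at least 47.9-fold higher, overlapping Gm45774 on the other strand), the zinc transporter gene Slc30a5 (1.44) and Mtf1, the metal-sensing transcription factor (1.09). Of 12 tested immediate early genes, whose mRNAs are short-lived in most cells, 5 were higher and 1 lower (median 1.11), against 13.9% and 9.78% of all tested genes. Without V1166 the list gave 3 higher and 1 lower of 10 tested, with a median of 0.24. Klf6 had 19.4, 8.79, 8.08 and 15.3 CPM against 0.312, 1.41 and 0.0996 (4.42 ± 0.87, SE, adjusted p = 0.00367), while Fos and Ier3 were at 0 in the controls and at least 10.5-fold and 14.8-fold higher, and Jun had 1 count over the controls (ratio 122, 95% counting interval 21.7 to 4825). In Ier3 egg 1 of V1166 had 8.71 CPM and the other cKO eggs 0.341 to 1.6. Of 10 tested p53 pathway genes 4 were higher and 0 lower (median 0.95), where 13.9% of all tested genes were higher. Trp53 had 88.5, 76.2, 55.3 and 49.9 CPM against 15.4, 19.4 and 14.6 (2.04 ± 0.30, adjusted p = 0.000794), and its target Ccng1 rose by 2.01 on the log2 scale.

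Of 13 heat shock genes, all tested, 4 were lower and 0 higher (median -0.64), where 9.78% of all tested genes were lower. Without V1166 the count was 6 lower and 1 higher. Hsp90aa1, a cytosolic chaperone, had 124, 75.7, 89.5 and 104 CPM against 491, 512 and 418 (-2.27 ± 0.22, SE, adjusted p = 0.000103), and its co-chaperone Dnaja1 fell by 1.30. Among 16 tested endoplasmic reticulum stress records 4 were higher and 3 lower (median 0.19), where 13.9% and 9.78% of all tested genes were. Ppp1r15a, a phosphatase subunit of the stress response, had 153, 155, 138 and 136 CPM against 38.7, 29.5 and 32.9 (2.11 ± 0.22, adjusted p = 0.000148). The transcription factor Ddit3 has 2 gene records, and the more abundant had 173, 204, 157 and 251 CPM against 57.2, 41.9 and 44.4 (2.04 ± 0.25). Of 9 tested interferon response genes of a list of 19, 3 were higher (Irgm2, Igtp and Oas1a) and 0 lower. Igtp (at least 11.6-fold higher) and Oas1a (at least 9.03-fold higher) were each at 0 in the controls, and Oas1a was also at 0 in egg 2 of V1166.

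The genotype difference was then set beside that in polyA MII eggs and RiboMinus GV oocytes, which came from other females. Of 12225 genes tested in all 3 comparisons, 766 were called in all 3 in the same direction, 364 higher and 402 lower, and another 131 were called in all 3 but not in 1 direction. These counts take each oocyte or egg as a replicate, and with counts summed per female the GV comparison called 3 genes (edgeR, 4859 at an unadjusted p under 0.05). One of the 6 genes with the largest shared rise was Arl2bp, a partner of the small GTPase ARL2, with 95, 195, 126 and 113 CPM in RiboMinus MII cKO eggs and 5.06, 10.7 and 11.8 in controls. Its log2 fold change was 3.85 at RiboMinus MII, 3.71 in polyA MII eggs and 3.71 at GV. Hist1h1e (4.26, 7.10 and 4.96, in the same order), the integrin gene Itga5 (5.81, 7.60 and 4.24), Colgalt1, which glycosylates collagen (4.42, 7.75 and 4.35), A830073O21Rik (5.19, 4.51 and 4.31) and Ppp1r12c (6.98, 6.24 and 4.68) were higher in all 3. The largest shared falls were those of Gcnt2, Frmd3, Tfap2b, Chst11 and Cltrn beside Exosc10. Chst11, a chondroitin sulfotransferase, had 6.22, 3.79, 4.41 and 2.54 CPM against 31.5, 38.1 and 21.5, and its log2 fold changes were -2.83, -3.74 and -2.38. The fold changes at RiboMinus MII were -4.65 for Cltrn, -4.07 for Frmd3, -3.82 for Gcnt2 and -2.54 for the transcription factor Tfap2b. Without V1166, A830073O21Rik (adjusted p = 0.123), Frmd3 (0.074) and Tfap2b (0.122) were not called at RiboMinus MII, and Colgalt1 was not without V1167 (0.0796). Frmd3 was also not called with the GC trend removed (0.0525), A830073O21Rik with the female as a random effect (0.0824), and Gcnt2 with library totals in place of TMM (0.0518) or by DESeq2 (0.0775). Without control egg 2, 3 or 4 in turn, Frmd3 (0.107, 0.0584 and 0.054) and Gcnt2 (0.0813, 0.106 and 0.0641) were not called, nor was Cltrn without control egg 2 or 3 (0.0656 and 0.0695) or Tfap2b without control egg 2 or 4 (0.228 and 0.0518).

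**Figure D5:**
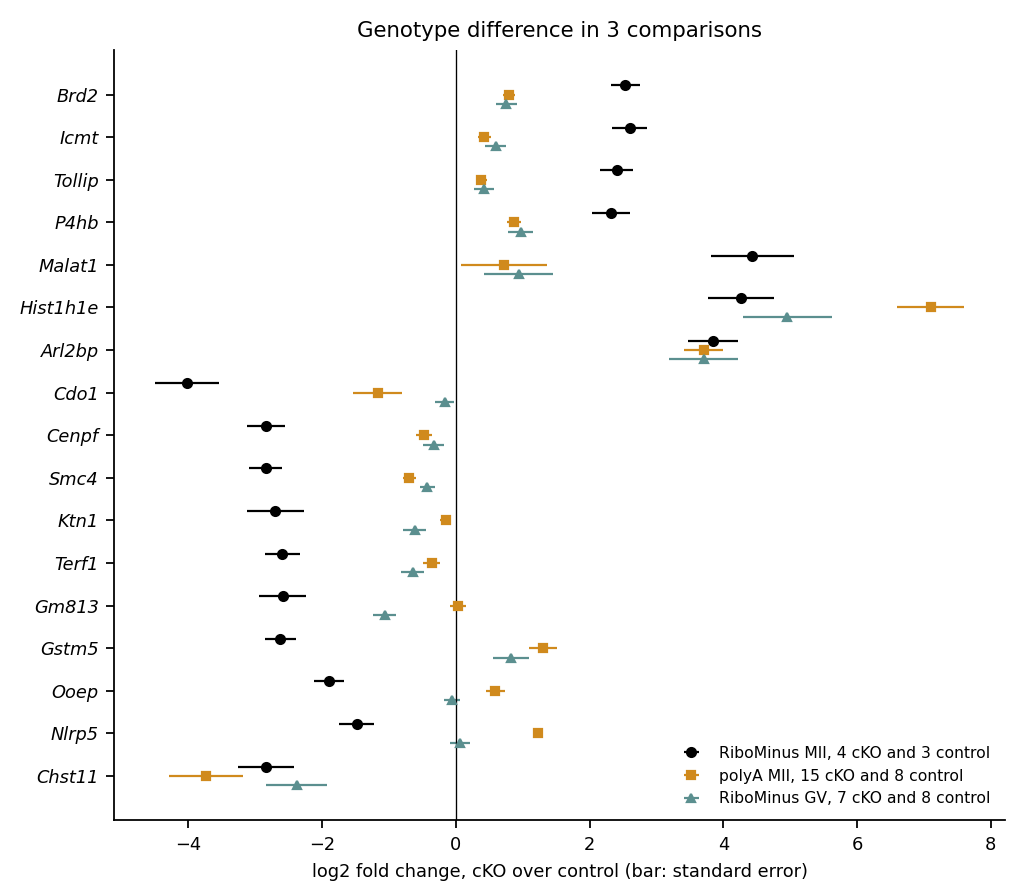
Log2 fold change of cKO over control for 17 genes in RiboMinus MII eggs (circles), polyA MII eggs (squares) and RiboMinus GV oocytes (triangles), with bars for the standard error. Arl2bp, Hist1h1e and Chst11 have the same sign in all 3, and Gstm5, Ooep and Nlrp5 have opposite signs in RiboMinus and polyA MII eggs.

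Other differences depended on the stage. The test of stage by genotype in RiboMinus libraries called 2837 of 19110 genes, 14.8%. The log2 fold change was more positive at MII than at GV for Mamld1 (log2 interaction 11.67, adjusted p = 1.62e-05), Gm12800 (10.80, 0.000546), Tut4 (7.31), Sp4 (7.04) and Slc7a14 (7.02). Their fitted values at MII rest on few control counts. Among the most negative interactions of called genes were Pnpla3, a lipid droplet acyltransferase (-4.60, adjusted p = 0.000641), Cdo1 (-3.92, 9.73e-06), Gstm5, a glutathione transferase (-3.52, 1.85e-05), and the signalling inhibitor Socs5 (-3.39). Gstm5 had 28.5, 32.5, 21.8 and 36.0 CPM in cKO eggs and 187, 185 and 177 in controls at MII (-2.62 ± 0.23, SE), and was higher in cKO in polyA MII eggs (1.30) and at GV (0.83). Pnpla3 had 1.51 to 2.83 CPM against 29.8 to 31.7 at RiboMinus MII (-3.81), fell by 7.87 in polyA MII eggs and was not called at GV (0.73, adjusted p = 0.303). Socs5 had 0.946 to 4.79 CPM against 12.2 to 23.7 (-2.69). The 2 stages also differ in the females, and with counts summed per female the interaction test called 0 genes (edgeR, 3611 at an unadjusted p under 0.05, and 3857 calls by DESeq2 on oocytes).

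The fold changes in these libraries also varied with the GC content of the gene. Across 13430 coding genes, which are not independent replicates, Spearman's rho of log2 fold change with GC content was 0.206, and it was 0.131 in polyA MII eggs and 0.184 at GV. The median log2 fold change was -0.48 for the 501 genes under 40% GC and 0.50 for the 2496 genes from 55 to 60%. With the GC trend of each library removed these medians were 0.06 and 0.24, and 3407 of the 3949 calls were kept. Among gene types, coding genes were called in 25.9% (3480 of 13446), lincRNAs in 17.9% (158 of 884, of which 74 were higher) and antisense RNAs in 13.0% (107 of 823), each read without knowing the strand of counting.

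Some calls of the genes named above were lost when 1 control egg was left out. Over all tested genes, leaving out control egg 2, 3 or 4 cut the calls from 3949 to 2328, 2487 or 2439. Among the genes named above, leaving out any 1 of the 3 control eggs ended the calls of Bop1, Cdk1, Dxo, Frmd3, Gcnt2, Izumo1r, Nop56, Oas1a, Rian, Scarna10, Scarna3b and Wee2. Leaving out 1 or 2 of them ended those of Banf1, Cltrn, Dis3l2, Exosc6, Gdf9, Jun, Lbr, Lmna, Mtrex, Npat, Rny3, Rps20, Rps27l, Scarna3a, Snord12, Sun1, Syne1, Tfap2b, Tug1, Zfc3h1, mt-Nd6, mt-Rnr1, mt-Tc and mt-Tl2, and of the less abundant record of Ddit3. With limma voom and the female as a random effect, the genes of the text that were not called included Ovgp1 (adjusted p = 0.194), Zfp36l1 (0.119), Zfp36l2 (0.0575), Tut4 (0.0729), Rny3 (0.11), Rian (0.0519), Hist1h3b (0.209), Hist1h3c (0.0685) and Hist1h2be (0.0713). They also included Ier3 (0.0659), Jun (0.0627), Igtp (0.0614), Oas1a (0.144), Bop1 (0.162), Npat (0.126), Syne1 (0.0505), Dxo (0.0794), Zfc3h1 (0.0597) and Rps27l (0.0855).

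The size of the difference in other named genes also varied with the female. Without V1166 the log2 fold change was 3.56 and 3.72 for the 2 records of Rmrp (4.55 and 4.45 with all eggs), 2.24 for Gm26917, 2.01 for Hist1h4d, 1.17 for Anapc10, -3.89 for Ktn1, -4.44 for Ccnb3, -2.66 for mt-Rnr2, -1.02 for Cdk1, -0.74 for Mtrex and 4.18 for Ovgp1. Without V1167 it was 7.70 for Mt1, -3.38 for Gm813, -3.30 for Fgf8, -2.53 for Rpl39l, -2.63 for Cdk1 and -1.88 for Mtrex. All of these were called in both subsets, on the same side as with all eggs.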

How the data were processed

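Single-egg RNA was measured in 7 RiboMinus libraries. Per the labels' protocols the authors used the Ovation Solo system with random hexamer priming. The submitters' processing notes name cutadapt 2.5, STAR 2.7.2a, HTSeq 0.9.1 and build mm10; the annotation release and strand setting are not given in the sources used here. The deposited files hold raw counts per Ensembl gene, with no normalization, and 5 lines for reads outside genes; the ribosomal RNA files hold counts per segment. Of 55573 gene IDs, 55480 matched GENCODE M21.

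Counts were tested with edgeR 4.0.16 in R 4.3.3 (filterByExpr, TMM, quasi-likelihood F test, two-sided, Benjamini-Hochberg, threshold 0.05) on the 2 groups alone, with the egg as the replicate, and checked on simulated data. Shares and spacers used exact permutation tests (scipy 1.17.1). With 1 to 3 control counts a ratio with its 95% interval is given, and with 0 a bound against 3 counts. Replicate libraries differed beyond counting error, so none were merged.

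Named genes were Exosc10; the 10 largest rises and falls among called, non-overlapping genes with average log2 CPM of at least 3; 8 of each at 7 or more; 6 of each with the largest shared change in 3 comparisons; 6 of each among stage interactions (1 is not reported here); and up to 4 called members per list. Other list members, and genes at 0 in 1 group, were named after their values were seen. The members and lists were chosen with earlier results of these data known. Alternatives were DESeq2 1.42.0, limma 3.58.1 voom, other size factors, filters and depths, female sums, other groups in the fit, and leaving out eggs or females.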

Additional observations from a re-analysis of the deposited data

Results flagged for a closer look

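Within the 4 cKO eggs, 1 egg stood apart from the other 3 in several results, judged by the gap to its nearest neighbour as a part of the range. Chance alone does this for about 1 in 20 groups. Egg 1 of V1166 stood apart in total gene counts (0.894), Neat1 (0.952), Ier3 (0.849), Zfp36l1 (0.844) and Banf1 (0.922). Egg 2 of V1166 stood apart in the mitochondrial share (0.955), mt-Nd1 (0.946), mt-Cytb (0.953), mt-Rnr1 (0.907) and mt-Nd6 (0.893), in both records of Rmrp (0.845 and 0.886), in Dppa3 (0.912) and in Sp110, a nuclear body protein gene (0.877). Egg 1 of V1167 was apart in Frmd3 (0.903), Gcnt2 (0.911) and Dcp2 (0.862), and egg 2 of V1167 in Wdr12 (0.910).

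The genotype difference was tested for a change between GV and MII in RiboMinus libraries (edgeR interaction, adjusted p under 0.05), and 2837 genes were called. This test takes each oocyte or egg as a replicate, also where they share a female. The value given is the log2 fold change at MII minus that at GV. It was positive for Irgm2 (7.92), Gm29125 (7.67), Gm12800 (10.8), Slc7a14 (7.02), Usp17lb (5.61), Sp4 (7.04), Mamld1 (11.7), Mt2 (9.95), Hist1h3b (9.94), Fos (6.91) and Star (5.24), whose fitted values rest on 0 or few control counts. It was also positive for Gm12794, a family member of Gm12800 (5.57). Among abundant genes it was positive for Malat1 (3.41), Icmt (1.94), Brd2 (1.72), Tollip (1.91), Sc5d (2.17) and P4hb (1.29). It was negative for Cenpf (-2.58), Smc4 (-2.49), Ktn1 (-2.16), Clip1 (-2.24), Terf1 (-2.01), Gm813 (-1.59), Cdo1 (-3.92), Gm42553 (-4.99), Me3 (-3.16), Rpl37rt (-3.00), Serpinb12 (-2.97), Pnpla3 (-4.60), Gstm5 (-3.52), Socs5 (-3.39) and Sp110 (-2.21).

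Genes of RNA decay with such a difference were Exosc1 (-1.14), Tent4a (0.906), Dis3l2 (2.14), Rexo1 (0.886), Tut4 (7.31), Zfp36l1 (4.94), Dcp2 (-1.04), Pan2 (1.47) and Cnot8 (1.13). For cell cycle genes the values were 1.48 for Ccna2, -1.89 for Cdk1, 0.712 for Wee2, 2.64 for Cdc20, 1.28 for Anapc10, -1.54 for Ube2c, -0.995 for Fbxo5 and 1.05 for Mos. Egg genes with a difference were Ooep (-1.91), Nlrp5 (-1.61), Cd9 (-2.44), H1foo (1.91), Oosp2 (-1.31), Kit (-0.959), Dppa3 (-1.49), Oog2 (-1.06) and Oog4 (-2.21), the last 2 of an oocyte-expressed gene family. Envelope and endosome genes gave 0.938 for Sun1, -1.01 for Banf1, 1.14 for Lbr and -1.25 for Eea1. Stress genes gave -1.83 for Hsp90aa1, -1.24 for Dnaja1, 2.03 for Ppp1r15a, 1.12 for Ddit3, 1.48 for Trp53 and 1.64 for Slc30a5. RNA and ribosome genes gave 1.30 for Rcc1, 1.08 for Sympk, 0.993 for Slbp, -1.29 for Wdr12, -2.22 for Scarna3a, -2.56 for Snord12, -1.34 for Scarna10, -1.65 for Rpl35, -1.41 for Rpl39l and -1.69 for Rps20. Histone genes Hist1h2bc and Hist3h2a gave -1.61 and 1.81, and the mitochondrial genes mt-Rnr2 and mt-Co1 gave -1.53 and 1.35. The females differed between the stages, and the part of this in the interactions was not tested.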

How the results depend on the processing

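The genotype comparison of RiboMinus MII eggs called 3949 genes. It called 6620 with all RiboMinus groups in 1 fit and 1703 with counts summed per female (2 sums against 1, where the lone control sum has no spread of its own and is assumed to vary like the cKO sums, with 1 residual degree of freedom, so that this count is no measure of stability). Leaving out each egg in turn gave 2328 to 3707 calls. The other settings stayed within 1.5 times of 3949, among them DESeq2 (5904), library totals (3968, of which 2553 were higher) and limma voom treating each female as a random effect, whose 2847 calls were 1287 higher and 1560 lower, against 2319 and 1630. With counts summed per female the other comparisons fell to 2522 calls (polyA MII genotype), 3 (RiboMinus GV genotype, edgeR, 4859 at an unadjusted p under 0.05), 0 (RiboMinus stage by genotype) and 929 (MII library type by genotype). Library totals moved the split of polyA MII genotype to 2943 higher and 1808 lower and of RiboMinus GV genotype to 3931 and 1995. The median of all genes moved by 0.0795 with library totals, and 0 called genes changed sign. The log2 ratio of the share of predicted Gm genes was -0.23 with all lines of the file as the base. The share of Rik genes had a ratio near 0, which was -0.035 without mitochondrial genes, 0.023 with all lines and -0.0367 to -0.00396 when eggs were left out. The ribosomal spacer difference was 0.53 with 18S alone as the base (exact permutation test, p = 0.286), and the difference in genes detected was 1610 with at least 10 counts, an alternative chosen after seeing the data, as was the GC correction.

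Of 175 genes named by rule or in the text, those that were called kept their direction in every setting run, but 78 lost their call in at least 1. Those not called numbered 46 with counts summed per female, 30 by limma voom with females as random effects, 30 to 36 without a single control egg, 8 to 17 without a single cKO egg, 15 without V1166, 29 without V1167 and 10 with the GC trend removed. Calls appeared 16 times among 6 genes not called otherwise, namely Slbp, mt-Nd1, mt-Co1, mt-Cytb, Rn7sk and Rny1. Uncalled genes changed sign in some: Slbp without V1166 (-0.022), mt-Nd1 without egg 2 of V1166 (-0.030, and up to 1.04 without other eggs), Terc without control egg 2 (0.38, and down to -0.44 without other eggs) and Kcnq1ot1 with the GC trend removed (0.26), without V1167 (0.50) and without single eggs (-0.47 to 0.45). No paired analysis was possible because no female gave eggs of both genotypes. The cause of these changes was not tested. The main limits are 3 control eggs from 1 female, no spike-in counts, no record of the strand used in counting, and a smallest exact p of 0.0571.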

Other observations

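Some genes of repeated, oocyte-expressed families differed between the groups. They were chosen after their values were seen, and their shared sequence makes the counts uncertain. The other members of these families were not counted, and over all tested genes 13.9% were higher and 9.78% lower. Beside Usp17lb, its family member Usp17le had 7.62, 11.1, 7.83 and 23.7 CPM in cKO eggs and was at 0 in the controls (at least 65.1-fold higher). Gm12794, of the family of Gm12800, had 11.3, 2.52, 45.1 and 18.8 CPM against 0.812, 0 and 0 (log2 fold change 6.18 ± 1.31, SE, adjusted p = 0.00545), and it was not called without V1167 (adjusted p = 0.104). Some genes named Oog were lower: Oog4 had 6.07, 8.84, 9.82 and 12.2 CPM against 55.3, 44.5 and 66.4 (-2.59 ± 0.32, adjusted p = 0.00029), and Oog1 (-1.52), Oog2 (-1.24) and Oog3 (-0.69) were lower as well, of which Oog1 and Oog3 were not called without V1167 (adjusted p = 0.0643 and 0.0829). Sp110, a nuclear body gene that overlaps another record on the other strand, had 16.4, 52.9, 19.6 and 20.9 CPM against 319, 217 and 244 (-3.25 ± 0.37, adjusted p = 0.000211).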
